A study of Homo sapiens with 8 samples.

Results

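The long arm of chromosome 16 was examined in γH2AX chromatin immunoprecipitation sequencing of A2780, a human ovarian carcinoma cell line. Its members were selected by position alone: every peak on chromosome 16 (hg19) with its midpoint from 46 Mb to below 89.35 Mb. The arm was picked from earlier results of these lists, where it had a high density of regions, so its counts are given as a description and no test was made. The rule found 827 of the 53169 regions on chromosomes 1 to 22 and X. By list, untreated cells had 128 of 9709, cisplatin cells 391 of 25671 and Pt-ttpy cells 308 of 17789.

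All cells were A2780. The groups used were untreated cells, cells kept for 96 h with cisplatin at its IC80, and cells kept as long with Pt-ttpy at its own IC80. Pt-ttpy is a platinum compound designed to bind G-quadruplex DNA. The labels tie both samples of a group to 1 deposited peak list, so a condition has 1 list, has no replicates and was compared with no p-value. The 2 input samples, chromatin of untreated cells without immunoprecipitation, were not analysed here. A region's fold is its pileup over the background of its own list, as deposited by the authors, and folds are not ranked between lists. Read depth is unknown.

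γH2AX is histone H2A.X phosphorylated near DNA double-strand breaks. The mark is laid down by kinases of the damage response and can spread far along the chromatin on either side of a break. Cisplatin crosslinks neighbouring purines. The long arm of chromosome 16 begins with a large block of constitutive heterochromatin rich in human satellite repeats. Satellites are arrays of near-identical units, so a short read from them can match many places.

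The regions lay in 2 compact blocks with little between them. In the satellite block, from 46 to 47 Mb, there were 71 regions in untreated cells, 74 with cisplatin and 72 with Pt-ttpy. In the rest of the arm the numbers were 57, 317 and 236, and nearly all of these fell in a stretch of 321 kb (70881381 to 71202492). That stretch held 54 untreated, 286 cisplatin and 223 Pt-ttpy regions. It was found by joining regions of the 3 lists that lay no more than 25 kb apart, after the data had been seen. The remaining 3 untreated, 31 cisplatin and 13 Pt-ttpy regions were scattered over the arm. Of the 43 windows of 1 Mb beyond 47 Mb, 39 held no untreated, 28 no cisplatin and 33 no Pt-ttpy region. The untreated list lacks 123 of the 177 peak numbers that span its regions beyond 47 Mb, 94 of them in the 321 kb stretch. Untreated counts inside and outside that stretch may therefore be too low.

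**Figure D1:**
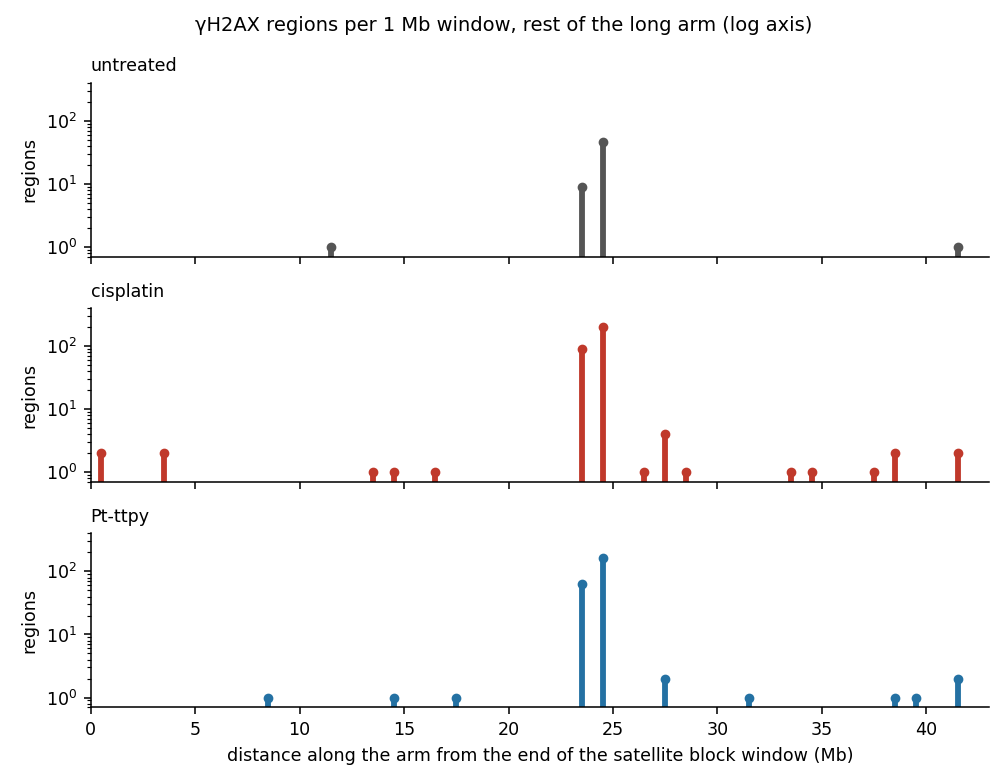
Number of called regions in each 1 Mb window of the arm beyond the satellite block (vertical log axis, windows with 0 regions not drawn) against the distance along the arm in Mb, with a panel for each list. The tallest pair of neighbouring windows contained 55 untreated, 297 cisplatin and 226 Pt-ttpy regions together, and no other window held more than 4.

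No list called a region at either limit of the rule. By the gap limits used here, the limit at 46 Mb lay inside the unassembled centromere gap, where no region can be called. The first regions began at the end of that gap, so the start of the satellite block is an edge of the assembly. Below 46 Mb the nearest region ended at 35285485 (untreated), 35285526 (cisplatin) and 35285540 (Pt-ttpy), on the short arm side of the centromere gap, with folds of 7.52, 7.44 and 6.75. The first region of each list above the gap equalled the highest fold of that list (60.4, 35.1 and 26.3). At the upper limit the last region inside ended at 88174076 in the untreated list, with a fold of 24.96, and at 88567968 and 88567965 in the treated lists, with folds of 3.46 and 3.52. The next region outside began at 90158762, 90155977 and 90155994, with folds of 4.51, 4.33 and 5.07. Beyond the limit lay 6 untreated, 10 cisplatin and 8 Pt-ttpy regions.

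The satellite block was called in all 3 lists, and its leading part was covered almost alike with and without drug. That part, from 46385792 to 46436359 (50.6 kb), was nearly closed: regions covered 96.1% of it without drug, 98.1% under cisplatin and 98.2% under Pt-ttpy. It stood as 11 regions in untreated cells, 7 with cisplatin and 6 with Pt-ttpy. Some untreated regions of the block may be trimmed or split calls, so their numbers and widths are those of the deposited list: 6 peak numbers stood on more than 1 piece, and 16 of the 71 regions had their summit outside their own borders. No list called the same 4 short stretches inside it, of 218, 173, 106 and 212 bp (46414559 to 46414776, 46415978 to 46416150, 46426466 to 46426571 and 46430740 to 46430951).

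Some borders of the widest pieces lay close together between lists, and others did not. The first and widest ended at 46410157 in untreated cells, and at 46414546 with cisplatin and 46414558 with Pt-ttpy. After it, the cisplatin list called 46416151 to 46426465 as a region of 10315 bp and the Pt-ttpy list called 46416152 to 46426421, 10270 bp. The untreated list split that stretch into 46416167 to 46422326 (6160 bp) and 46422438 to 46426416 (3979 bp). The next piece spanned 46426574 to 46430727 in untreated cells, 46426572 to 46430739 after cisplatin and 46426584 to 46430736 after Pt-ttpy. Further on, the Pt-ttpy list joined 46430955 to 46436146, where the cisplatin list had a region at 46430952 to 46431926 and another at 46432030 to 46435782. All of these except the 975 bp cisplatin region and the 3979 bp untreated region were tied at the highest -log10 q of their list (295 untreated, 237 cisplatin, 166 Pt-ttpy), so they cannot be ranked by strength.

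Beyond the leading part the block broke up into short regions. There were 60 untreated regions of a median 189 bp, 67 cisplatin regions of 338 bp and 66 Pt-ttpy regions of 286.5 bp. They covered 15.8, 29.2 and 28.4 kb. Their median folds, 6.92 untreated, 5.54 cisplatin and 6.11 Pt-ttpy, were above the whole-list medians of 5.71, 3.64 and 3.91. The strongest had folds of 14.1, 12.6 and 11.9 in their lists. The last untreated region ended at 46500239. Only 2 cisplatin regions and 1 Pt-ttpy region lay more than 100 kb beyond the leading part, the last of them ending at 46822582 and 46571014.

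**Figure D2:**
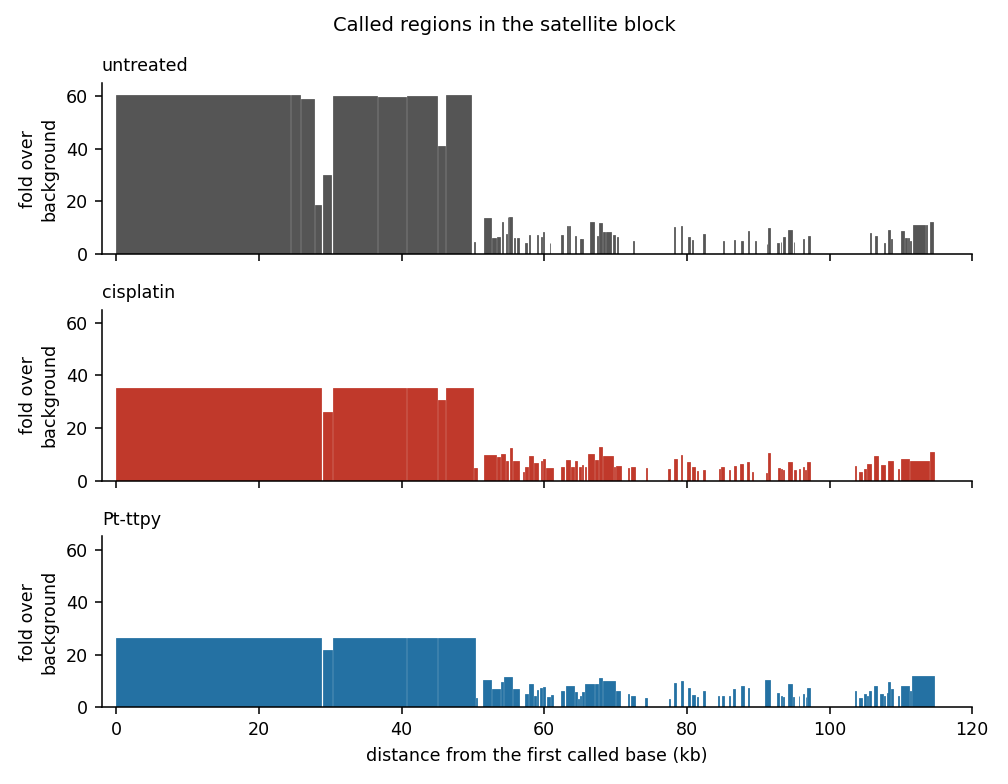
Called regions of the satellite block against the distance from its first called base in kb, with a panel for each list; the width of a bar is the region and its height the fold over that list's own background, so heights are not comparable between panels. The leading 50.6 kb is nearly closed in each list and is followed by short regions; the 2 cisplatin regions and 1 Pt-ttpy region farther out are not shown.

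Overlap in the satellite block was high between the drug lists and from untreated cells to either drug, and lower in the direction of untreated cells. A region was counted as shared when at least 1 bp lay on a region of the other list, and shares carry 95% Wilson intervals that cover counting error only, since neighbouring regions are not independent. Of the 71 untreated regions 70 lay on a cisplatin and 70 on a Pt-ttpy region (98.6%, 92.4 to 99.8%), where the shares over the whole untreated list were 96.1% and 95.1%. Of the cisplatin regions 95.9% (88.7 to 98.6%) lay on Pt-ttpy regions, and of the Pt-ttpy regions 97.2% (90.4 to 99.2%) lay on cisplatin regions, against 47.8% and 69.9% over the whole lists. In the direction of the untreated list 75.7% of cisplatin and 72.2% of Pt-ttpy regions were shared, where the whole lists had 27.3% and 39.5%. Counted in bases, 99.3% of the untreated block lay under cisplatin and 99.1% under Pt-ttpy regions, while 81.1% of cisplatin and 81.7% of Pt-ttpy bases lay under untreated regions. The drug lists differed little there, with 94.7% of cisplatin bases under Pt-ttpy regions and 95.5% the other way.

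Per Mb the dense block at 70881381 to 71202492 held 168 regions in untreated cells, 891 with cisplatin and 694 with Pt-ttpy. Untreated regions covered 7.16 kb, or 2.23% of the block. Cisplatin regions covered 93.5 kb (29.1%), and Pt-ttpy regions 66.4 kb (20.7%). There were 5.30 cisplatin and 4.13 Pt-ttpy regions per untreated region, and 1.28 cisplatin regions per Pt-ttpy region. Over the whole lists these ratios were 2.64, 1.83 and 1.44. Of the 145 untreated peak numbers that span the block, 94 are missing from that list, so the untreated count may be too low. Per untreated number, missing ones included, the ratios in the block were 1.97 and 1.54, while the whole-list ratios are per region kept. With 9709 top regions by -log10 q taken from each list, the rest of the arm held 57 regions in untreated cells, 66 with cisplatin and 47 with Pt-ttpy.

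General knowledge of hg19 places the dense block within HYDIN, the gene of a protein of the central pair in motile cilia. An annotation of that build was not used here, so exons and introns are not assigned. RefSeq's table for GRCh38.p14 lists HYDIN on chromosome 16 and HYDIN2, a transcribed pseudogene, on chromosome 1. HYDIN2 is a near-identical partial copy of HYDIN. Whether the hg19 sequence of chromosome 1 holds HYDIN2 was not checked. In a build with both copies, their reads can be hard to assign. In a build without HYDIN2, its reads could be placed at HYDIN with no competing match. The sources used here do not say how reads with several matches were treated, and the part of reads from the copy in the dense block was not tested.

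Called regions filled the dense block from end to end in both treated lists. All 33 bins of 10 kb held a cisplatin and a Pt-ttpy region, and 20 held an untreated region. The median distance from a region to the next was 422 bp after cisplatin, 582 bp after Pt-ttpy and 2339 bp in untreated cells. The longest stretch without a call inside the block was 6015 bp for cisplatin, 11427 bp for Pt-ttpy and 47941 bp for untreated cells. In that untreated stretch, 71018758 to 71066700, 10 peak numbers are missing. Untreated spacing and bins are therefore those of the deposited list. The first region began at 70881385 after cisplatin and 70881381 after Pt-ttpy, and at 70901392 in untreated cells. Between 70328078 and that untreated start 7 untreated peak numbers are missing. At the far side the last regions ended within 100 bp of each other, at 71202434 in untreated cells, 71202492 after cisplatin and 71202417 after Pt-ttpy.

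Over the 3 windows of 100 kb that lie wholly inside the block, counts were higher in each further along the arm, in all 3 lists. The window from 70.9 to 71.0 Mb had 8 regions without drug, 63 with cisplatin and 46 with Pt-ttpy. The next window, up to 71.1 Mb, had 15, 88 and 67, and the last full one, up to 71.2 Mb, had 29, 112 and 93. The windows at its borders, 70.8 to 70.9 Mb and 71.2 to 71.3 Mb, held 0, 19 and 14 regions and 2, 4 and 3. The rise did not begin at the border of the block: its first 10 kb held 12 regions in each treated list and 0 in the untreated one, and the fourth 10 kb held 4 (cisplatin) and 5 (Pt-ttpy). Among all 100 kb windows more than 5 Mb from a centromere gap, the one from 71.1 to 71.2 Mb ranked 1 by cisplatin, 2 by Pt-ttpy and 22 by untreated regions. Windows with 5 or more regions numbered 5 for cisplatin, 4 for Pt-ttpy and 3 for untreated cells. All of them lay in the dense block except the cisplatin window at 70.1 to 70.2 Mb.

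**Figure D3:**
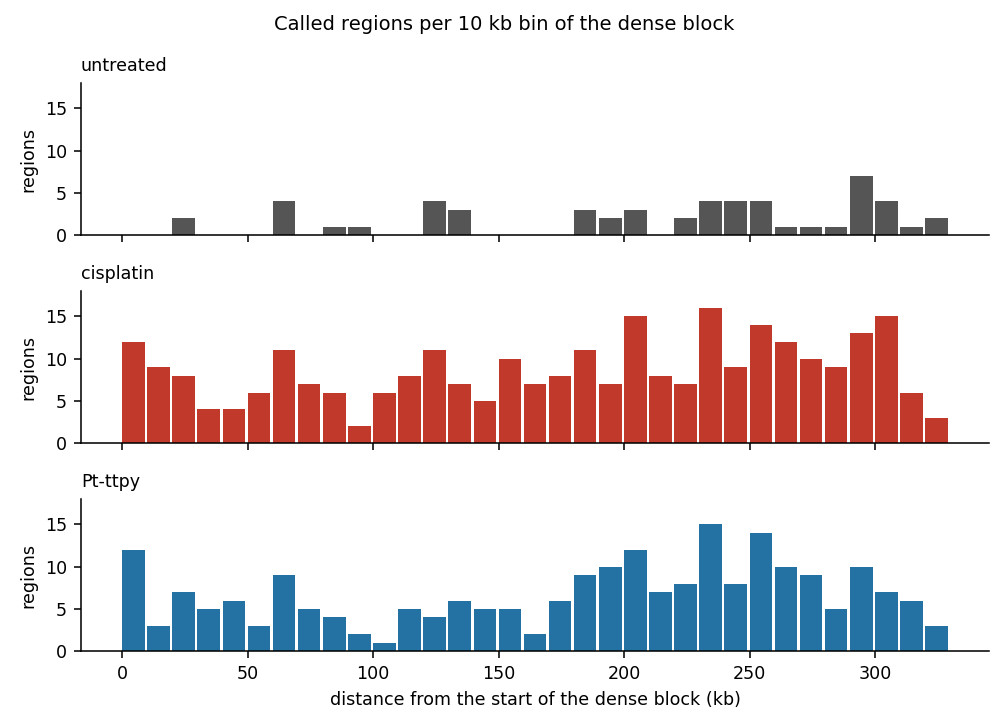
Number of called regions in each 10 kb bin of the dense block against the distance from its start in kb, with a panel for each list; the last bin holds only the remainder of the block. Each bin held a region in both treated lists, with at most 16 cisplatin and 15 Pt-ttpy regions, and 20 of 33 bins held an untreated region, with at most 7.

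The regions of the dense block were close to the calling limit. Their median folds, 4.21 untreated, 3.46 cisplatin and 3.39 Pt-ttpy, were below the whole-list medians of 5.71, 3.64 and 3.91. Among untreated regions there 16.7% reached a -log10 q of 5, with 31.1% for cisplatin and 23.3% for Pt-ttpy, where 73.9%, 46.9% and 57.6% of the whole lists reached it. Width went the other way for the treated lists. Cisplatin regions had a median of 245 bp and Pt-ttpy regions of 205 bp, against 169 and 185 bp over their lists. Untreated regions were narrower, with a median of 117.5 bp against 164 bp. The narrowest untreated piece spanned 3 bp, while no treated region was under 101 bp. Of the 54 untreated regions in the block, 24 had their summit outside their own borders and may be trimmed calls. Untreated widths are therefore those of the deposited list.

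Some of the strong sites inside the dense block were called in all lists and others were not. The region at 71016693 to 71017263 was the widest of the untreated list there, with 571 bp and a fold of 5.11. Cisplatin cells had it at 71016616 to 71017463 (fold 5.19), and Pt-ttpy cells at 71016677 to 71017472 (fold 4.94). Another wide site was called at 71180432 to 71181659 (1228 bp) after cisplatin and as 71180117 to 71182547 (2431 bp) after Pt-ttpy, both on untreated regions. The site with the highest cisplatin -log10 q in the block, at 71169857 to 71170454 with a fold of 5.37, lay on no untreated and no Pt-ttpy region. The untreated piece at 70947449 to 70947482 lay on a cisplatin but on no Pt-ttpy region. Its deposited fold was 5.71, with a summit at 70947516, outside the piece. That summit lay on a Pt-ttpy region and on no cisplatin region. The widest cisplatin region, 71078247 to 71079671 (1425 bp, fold 3.98), was off the untreated list, like the cisplatin site at 71169857. In each of the stretches that hold them, 71077747 to 71080087 and 71165930 to 71174006, 2 untreated peak numbers are missing. An untreated call there may therefore be absent from the deposited list.

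In the dense block most regions of each drug list met a region of the other. Among the 223 Pt-ttpy regions 80.3% (74.6 to 85.0%) lay on a cisplatin region, where the whole list had 69.9%. Of the 286 cisplatin regions 60.5% (54.7 to 66.0%) lay on a Pt-ttpy region, where the whole list had 47.8%. The share on untreated regions was 13.6% (cisplatin) and 14.3% (Pt-ttpy), where the whole lists had 27.3% and 39.5%. With 94 of 145 untreated peak numbers missing in the block, these shares may be too low. Missing numbers over the whole untreated list are not given here, so the difference cannot be read as a trait of the block. In bases, 61.4% of Pt-ttpy sequence lay under cisplatin regions, which covered 29.1% of the block, and 43.6% of cisplatin sequence lay under Pt-ttpy regions, which covered 20.7% of it. Untreated regions covered 2.23% of the block, and 4.93% of cisplatin and 7.94% of Pt-ttpy sequence lay under them. Of the 54 untreated regions 46 lay on a cisplatin region (85.2%, 73.4 to 92.3%) and 42 on a Pt-ttpy region (77.8%, 65.1 to 86.8%), below the whole-list shares of 96.1% and 95.1%.

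Regions common to all lists were the wider ones. The 36 cisplatin regions of the dense block on both other lists had a median width of 558.5 bp and a median fold of 3.89, the 137 on Pt-ttpy alone 291 bp and 3.46, and the 110 on neither 166 bp and 3.29. The Pt-ttpy regions followed the same order. The 30 on both other lists had a median width of 453.5 bp, the 149 on cisplatin alone 216 bp, and the 42 on neither 155.5 bp. A wider region has more bases with which to meet another.

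**Figure D4:**
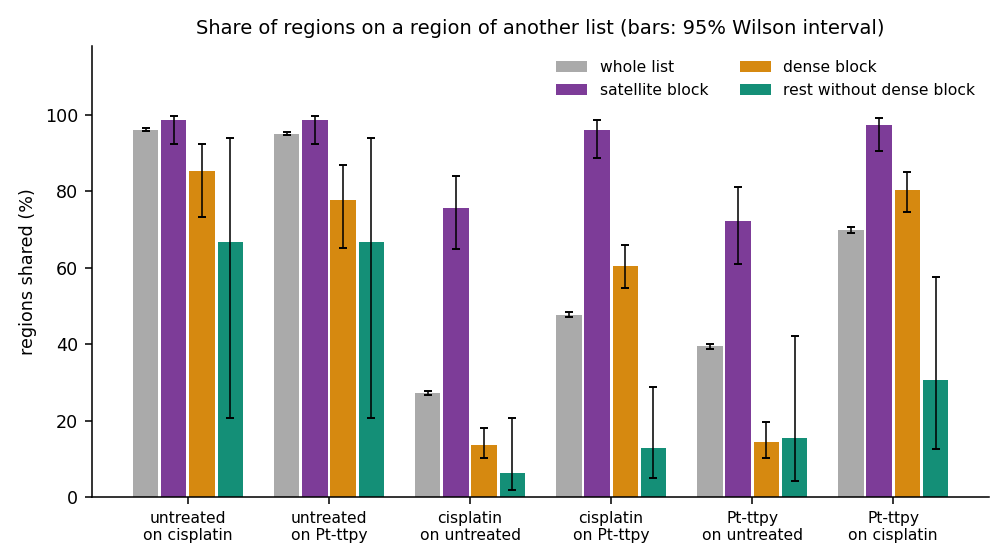
Percentage of the regions of 1 list that share at least 1 bp with a region of another, for the 6 directions, in the whole list, the satellite block, the dense block and the rest of the arm without it; error bars are 95% Wilson intervals. Shares were above 70% in every direction in the satellite block, while in the dense block the share on untreated regions was 13.6% for cisplatin and 14.3% for Pt-ttpy. In the dense block 94 of 145 untreated peak numbers are missing, so shares on untreated regions may be too low there.

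Peak numbers follow position in the untreated list, which is how missing ones were placed. In the satellite block 12 of 77 numbers were missing, and in the rest of the arm 123 of 177. Of the 54 untreated regions in the dense block, 24 had their summit outside their own borders, and 3 numbers stood on more than 1 piece.

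Away from both blocks, regions were few and mostly called in 1 list. The strongest was a narrow site near the end of the arm, called in all 3 lists. It spanned 88173922 to 88174076 (155 bp) in untreated cells, 88173915 to 88174078 (164 bp) after cisplatin and 88173920 to 88174077 (158 bp) after Pt-ttpy. Its summit lay at 88174005, 88173996 and 88173992. Its folds were 24.96 (untreated), 20.9 (cisplatin) and 17.2 (Pt-ttpy), and by -log10 q it ranked 372, 282 and 306 in its list. No other region beyond 47 Mb had a fold above 6.75 in any list.

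A second narrow site, at 70327979 to 70328078 in untreated cells, was also called in all lists. Its fold was 5.71 there, 5.02 with cisplatin (70327979 to 70328085) and 5.07 with Pt-ttpy (70327977 to 70328082). The third untreated region outside the blocks, at 58054669 to 58054752 with a fold of 5.11, was met by neither drug list. Its summit, at 58054762, lay outside its own borders. Both drug lists, and not the untreated one, had a site at 85857140 to 85857281 (cisplatin, fold 6.75) and 85857148 to 85857284 (Pt-ttpy, fold 6.11). The same held for a weaker site at 88567718 to 88567968 (cisplatin, fold 3.46) and 88567705 to 88567965 (Pt-ttpy, fold 3.52). Between 71202434 and 88173922, a stretch that holds the site at 85857140, 18 untreated peak numbers are missing. An untreated call at that site may therefore be absent from the deposited list.

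Outside the blocks 27 of the 31 cisplatin regions met no region of another list, with a median fold of 3.29, where 51.4% of the whole cisplatin list met none. The same held for 9 of the 13 Pt-ttpy regions, with a median fold of 3.26, where the whole-list share was 29.3%. Among these cisplatin regions the highest fold was 5.54, at 80678925 to 80679039. Among these Pt-ttpy regions it was 4.43, at 64429425 to 64429531. A small group of 9 cisplatin regions lay between 70150841 and 70194277, with folds from 2.77 to 3.81. Beside them were 2 Pt-ttpy regions (70192051 to 70192156 and 70192415 to 70192530, both with a fold of 3.13) and no untreated region. In the stretch from 58054752 to 70327979, which holds this group, 4 untreated peak numbers are missing. General knowledge of hg19 places this group at PDPR, which encodes the regulatory subunit of pyruvate dehydrogenase phosphatase and belongs to a family of duplicated sequences on chromosome 16.

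Density over the arm was also computed with and without the dense block. Regions were counted more than 5 Mb from centromere gaps and 1 Mb from chromosome ends. The arm had a density per Mb of 1.501 untreated, 8.24 cisplatin and 6.22 Pt-ttpy regions, ranking 7, 2 and 2 of 41 chromosome arms. Highest in each list was the long arm of chromosome 1, with 3.84, 74.1 and 32.3 regions per Mb. Without the block the long arm of chromosome 16 had 0.0797, 0.717 and 0.345 regions per Mb. The block was taken out of this arm alone, so these values are not compared with other arms.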

How the data were processed

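The 3 deposited peak lists, 1 for each of the untreated, cisplatin and Pt-ttpy groups, were used. BWA 0.7.5, MACS2 2.1.0 and hg19 are named in the submitters' processing notes. The sources used here do not state calling settings, controls or how replicates were pooled. The deposited names of both treated lists carry the untreated label beside that of the drug. Untreated samples may therefore have entered those calls, and in what role is not stated. Per region, the values deposited by the authors are the fold (a ratio to background), the -log10 q-value, a score that restates the -log10 q, and a summit. No depth is given in the lists. The members and lists were chosen with earlier results of these data known.

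Regions on chromosomes 1 to 22 and X were kept. Midpoints placed them in the satellite block (46 to 47 Mb) or the rest of the arm, counted in windows of 100 kb. Named regions are the 5 widest and the 5 with the highest -log10 q of the satellite block, the 5 with the highest -log10 q and the 3 widest of the rest, and, chosen after the values were seen, those outside the dense block. Windows named are the 5 fullest of each list. Centromere gaps and chromosome lengths came from general knowledge of hg19, and 0 regions lay inside a gap or beyond an end. Without an annotation of hg19 the planned lookup of genes was not run, and no sequence is shown. No test was made. Overlap, merging and window counts were checked on simulated regions, with 60 of 60 planted answers recovered. Software was pandas 2.3.3, numpy 2.4.6 and scipy 1.17.1 under Python 3.11.15, with matplotlib 3.10.9 for figures.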

Additional observations from a re-analysis of the deposited data

How the results depend on the processing

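Each group has 1 list, so no library could be left out and no replicate was available. Of 124 values under alternatives, 61 stayed close to the value reported (within 1.5 times for counts and covered lengths, or within its 95% interval for shares and medians) and 63 moved. Starting the rest of the arm at 51 Mb moved none of its 7 values, and shifting the windows by 50 kb or asking for 10 regions moved none of the counts of dense windows. The dense block taken alone and the separation of the rest from it were added after the data were seen. Values below are in the order untreated, cisplatin, Pt-ttpy unless said otherwise. The causes of these moves were not tested.

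With regions within 1 kb merged, the satellite block held 13, 11 and 10 regions, with median widths of 2760, 4786 and 4455.5 bp. The rest of the arm then held 36, 102 and 86 regions over 16.5, 175.9 and 127.2 kb, with median widths of 533 bp (cisplatin) and 513.5 bp (Pt-ttpy). With a -log10 q of at least 5 the rest held 12, 98 and 58 regions over 1.84, 45.9 and 27.1 kb, with median widths of 372.5 bp (cisplatin) and 289 bp (Pt-ttpy), and 0 untreated windows were dense. With equal numbers of top regions it held 66 cisplatin and 47 Pt-ttpy regions, and without the dense block 3, 31 and 13.

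Shares in the satellite block moved with the overlap rule. With at least 50% of the region covered, 52.7% of cisplatin and 56.9% of Pt-ttpy regions lay on untreated regions. Within 1 kb these became 93.2% and 94.4%, untreated regions reached 100% on either drug list, and cisplatin on Pt-ttpy and the reverse reached 98.6% and 100%. With the stricter q, cisplatin on Pt-ttpy was 100%.

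Shares in the rest of the arm moved more. For untreated on cisplatin regions they were 70.2% with at least 50% covered, 96.5% within 1 kb, 91.7% with the stricter q, 49.1% with equal numbers and 66.7% without the dense block. For untreated on Pt-ttpy they were 94.7% within 1 kb and 50.9% with equal numbers. For cisplatin on untreated, in the first order, they were 1.58%, 32.5%, 24.5%, 31.8% and 6.45%. For Pt-ttpy on untreated they were 5.08%, 38.6%, 36.2% and 42.6%, with no move without the dense block. For cisplatin on Pt-ttpy they were 31.9%, 83.3%, 70.4%, 40.9% and 12.9%, and for Pt-ttpy on cisplatin 54.7%, 96.2%, 86.2%, 53.2% and 30.8%. Since the depth of the lists is unknown, a site not called in a list cannot be read as free of signal.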
